A study of Homo sapiens with 16 samples.

Results

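The receptor chains and kinases through which interferons signal were followed at the RNA level in HEK293 cells, a human embryonic kidney line, grown in suspension medium. They are 10 of the 20802 gene targets counted in each library: IFNAR1 and IFNAR2 for type I interferons, IL28RA (the older symbol of IFNLR1) and IL10RB for type III interferons, the kinases JAK1, TYK2 and JAK2, and IFNGR1, IFNGR2 and EPOR, which use some of the same kinases. The members were chosen by name, with earlier results of these data known. The 16 libraries form 8 groups of 2. Cells with receptors that the labels call optimized (OPT) or wild-type (WT) received 100 nM IFNw (interferon omega, type I), H11 (a high-affinity form of IFNL3) or IFNL3 (interferon lambda 3, type III), or were left untreated. Ligand was labelled as given for 15 min, and every group, untreated ones included, carries a time of 24 hr, with no statement of how these relate. The question of the series is whether the spatial arrangement of the 2 kinases on a receptor alters signalling by both ligand types. The sources used here do not give which chains were changed in OPT cells, whether OPT is 1 clone, or whether the amplicons would read an introduced chain. The libraries are labelled as biological replicates, with no word on separate cultures, so p-values measure the spread between these libraries.

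Type I interferons bring IFNAR1 and IFNAR2 together, and type III interferons bring IFNLR1 and IL10RB together. IFNAR1 and IL10RB carry TYK2, and IFNAR2 and IFNLR1 carry JAK1, so both receptors join the same pair of kinases, which phosphorylate STAT proteins. STAT2 acts together with IRF9 in a complex that switches on interferon-stimulated genes such as ISG15. IL10RB is also a chain of the interleukin-10 and interleukin-22 receptors. IFNGR1 carries JAK1 and IFNGR2 carries JAK2 in the receptor for interferon gamma, and EPOR, the erythropoietin receptor, works as a dimer with JAK2.

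IFNAR2, IL10RB, IFNAR1 and IFNGR2 are consecutive protein-coding genes on chromosome 21 in RefSeq, apart from an annotated read-through of IFNAR2 and IL10RB. IFNLR1 and JAK1 lie on chromosome 1, IFNGR1 on 6, JAK2 on 9, and TYK2 and EPOR on 19. Reads of the read-through could count under either chain, and the sources used here do not say whether counting used strand. The 250 bases before the annotated start of 4 members are shown. JAK1, IL10RB and IFNAR1 are examples of the members called below. The window of IFNLR1 was the only one of 16 windows of 9 members with a match to a STAT-type motif. Of several annotated starts, the outermost one was used for JAK1 and IFNAR1. They are RefSeq sequences of build GRCh38.p14, written 5′ to 3′ on the strand of the gene: IL28RA chr1:24187290-24187539 (minus), IL10RB chr21:33266117-33266366 (plus), JAK1 chr1:65067747-65067996 (minus) and IFNAR1 chr21:33324145-33324394 (plus). Capitals mark the match to TTCNNNGAA.
IL28RA: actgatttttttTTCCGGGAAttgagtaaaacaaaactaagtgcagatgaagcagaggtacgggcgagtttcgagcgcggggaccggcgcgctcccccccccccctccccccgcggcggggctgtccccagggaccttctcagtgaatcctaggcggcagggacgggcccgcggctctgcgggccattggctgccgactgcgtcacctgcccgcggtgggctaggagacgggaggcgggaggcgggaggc
IL10RB: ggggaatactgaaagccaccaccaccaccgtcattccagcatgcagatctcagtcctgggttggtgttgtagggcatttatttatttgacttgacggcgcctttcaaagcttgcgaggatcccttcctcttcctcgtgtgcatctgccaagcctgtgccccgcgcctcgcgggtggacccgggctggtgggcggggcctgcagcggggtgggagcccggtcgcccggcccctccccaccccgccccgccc
JAK1: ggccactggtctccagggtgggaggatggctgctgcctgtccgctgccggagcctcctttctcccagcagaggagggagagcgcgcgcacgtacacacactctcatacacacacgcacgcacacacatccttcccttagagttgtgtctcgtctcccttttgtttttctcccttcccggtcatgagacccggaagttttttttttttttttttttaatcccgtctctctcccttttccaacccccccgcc
IFNAR1: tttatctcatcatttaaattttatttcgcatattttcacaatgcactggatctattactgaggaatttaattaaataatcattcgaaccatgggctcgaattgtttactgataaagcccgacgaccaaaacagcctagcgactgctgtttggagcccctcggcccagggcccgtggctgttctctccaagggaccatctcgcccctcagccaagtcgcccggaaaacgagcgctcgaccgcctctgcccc
The match in IL28RA, TTCCGGGAA, begins 238 bases before the start. TTCNNNGAA, the core bound by STAT dimers (its own reverse complement), was found on either strand in 6.57% of 35116 RefSeq windows of the same length. The interferon-stimulated response element, searched as GAAANNGAAA on both strands, was found in 3.02% of those windows and in 0 of the 16 windows of the members. A match is a description of letters in this window only.

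Libraries held 5331203 to 9822088 reads, and the shallowest was replicate 2 of untreated OPT cells. Levels are normalised counts in CPM, the reads of a gene relative to the library's total, brought to a common size with TMM factors. Each gene was read by 1 target of unstated length, so levels are compared between libraries for 1 gene and never between genes. The 4 libraries of WT cells with H11 or IFNL3 stood apart from the other 12. Their 50 most abundant genes took 17.7% to 18.5% of the reads, against 23.7% to 28.7% elsewhere, their TMM factors were 1.26 to 1.28, against 0.80 to 1.07, and IL7R, the interleukin-7 receptor chain, had 65 to 72 reads in each, against 0 to 3. The rank correlation of log CPM with transcript length, after centring each gene, was 0.37 to 0.40 in those 4 libraries, -0.43 to -0.40 in the 6 libraries of OPT cells with IFNw or H11 and WT cells with IFNw, and 0.04 to 0.16 in the other 6 (12131 genes). The part of these differences in the results below was not tested beyond the refits given with them. Markers of HEK293 cells were present, 5 of 8 at a mean of 10 CPM or more, among them VIM at 271 to 542 CPM, while the neurofilament genes NEFL and NEFM lay below 1 CPM. Markers of blood cells summed to at most 6.03 CPM in any group, of erythroid cells to 0.896 CPM, of hepatocytes to 0.335 CPM and of fibroblasts to 19.7 CPM.

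All 10 members passed the filter on low counts. In these bulk samples fewer cells with a transcript and less of it per cell cannot be told apart. A difference is called at an adjusted p under 0.05 in edgeR's quasi-likelihood fit of all 16 libraries (Benjamini-Hochberg over 12704 genes), and fold changes are on the log2 scale with their SE. A test for any difference among the 8 groups called 7 members, against a background of 65.8% of all genes tested, so that the share of members called was near the background. The 7 were IFNAR1 (adjusted p = 0.032), IL10RB (4.8e-05), JAK1 (0.0016), TYK2 (0.0053), IFNGR1 (3e-05), IFNGR2 (0.0015) and EPOR (0.0017).

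**Figure D1:**
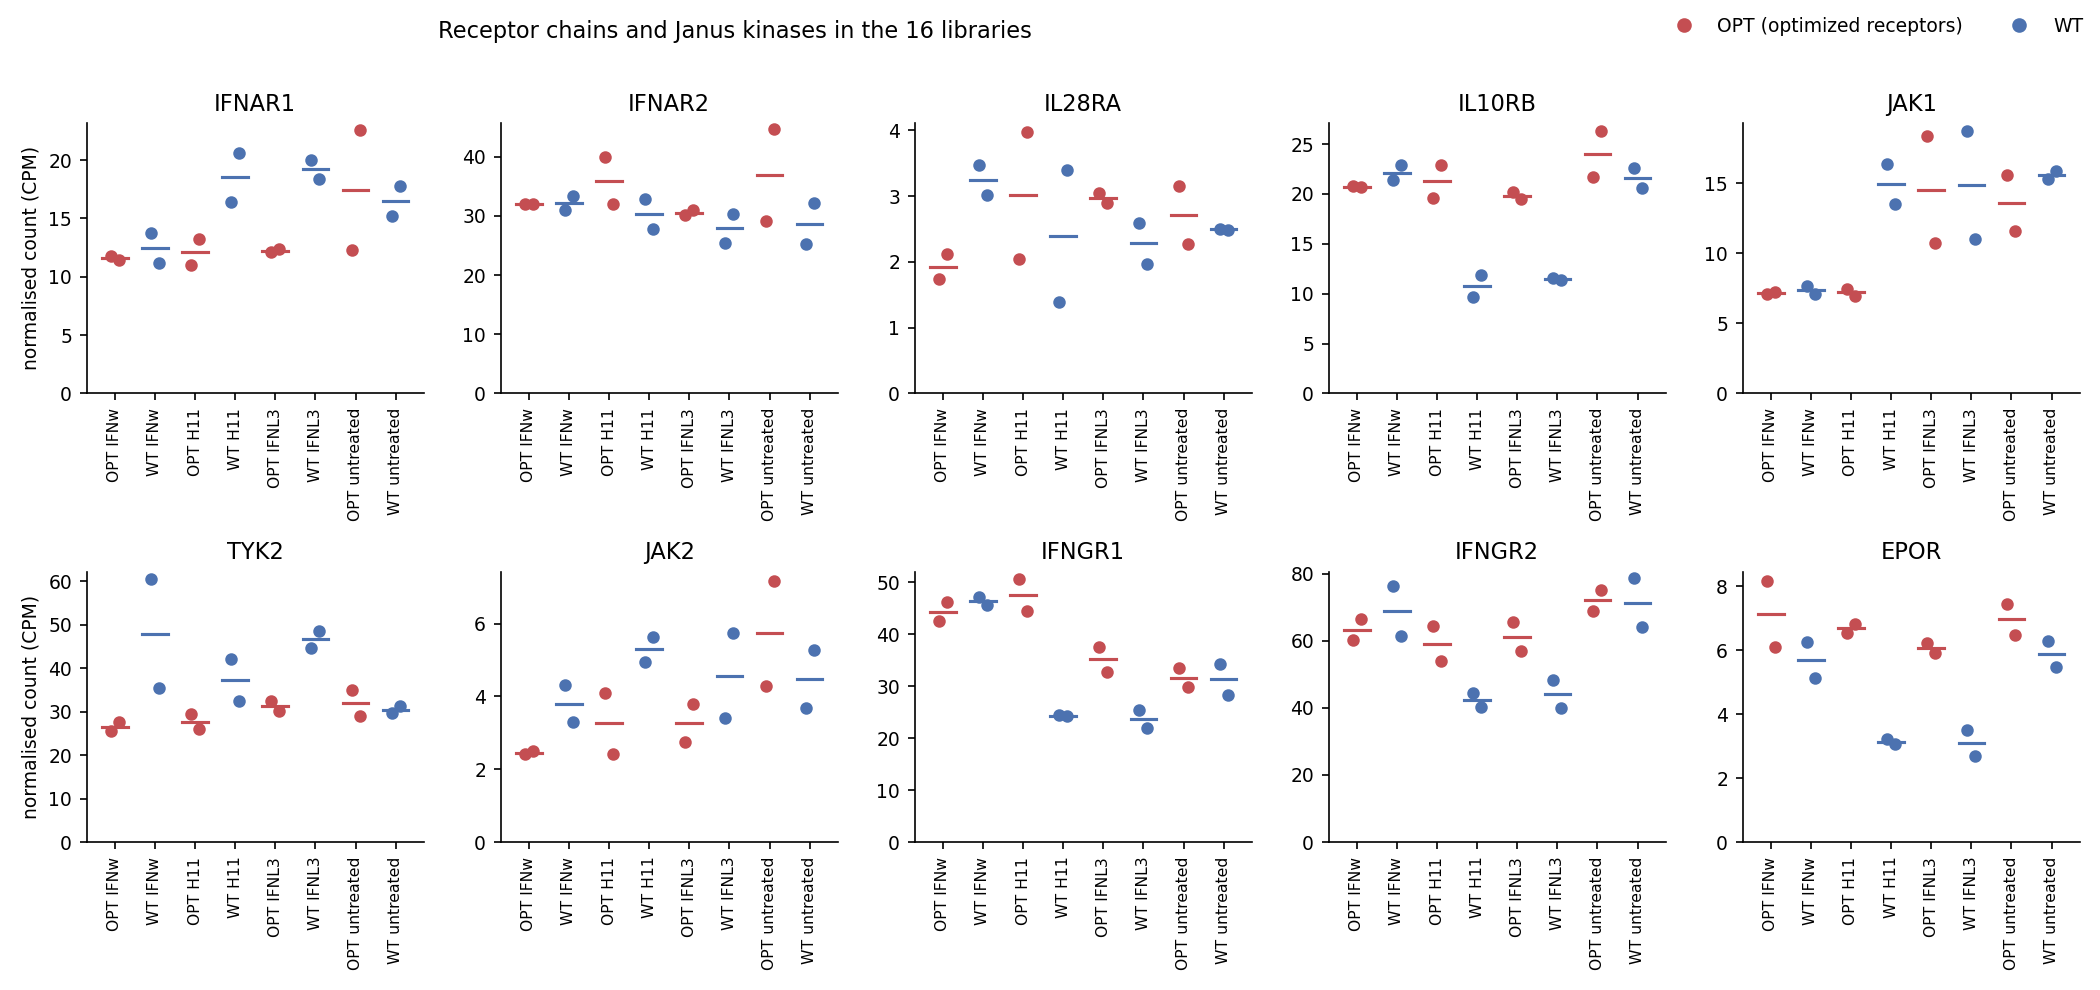
Normalised counts (CPM, vertical axis) of each member in the 8 groups, with a point for each of the 2 libraries and a bar at their mean; OPT groups are red and WT groups blue, and the vertical scale differs between genes. JAK1 lies at 6.97 to 7.66 CPM in OPT cells with IFNw or H11 and WT cells with IFNw, and IL10RB at 9.65 to 11.9 CPM in WT cells with H11 or IFNL3, below every other library.

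Of the type I chains, IFNAR1 binds TYK2 and has the weaker contact with the ligand. It was at 11.8 and 11.5 CPM in OPT cells with IFNw, at 11.03 and 13.2 CPM with H11, at 12.1 and 12.4 CPM with IFNL3, and at 12.3 and 22.6 CPM in untreated OPT cells. In WT cells it was at 13.8 and 11.2 CPM with IFNw, at 16.4 and 20.6 CPM with H11, at 20.0 and 18.4 CPM with IFNL3, and at 15.2 and 17.8 CPM untreated. Levels were lowest in the OPT groups with a ligand and in WT cells with IFNw, highest in WT cells with H11 or IFNL3, and the untreated OPT libraries spanned nearly the whole range. IFNAR1 was lower in OPT than in WT cells with H11 (-0.61 ± 0.24, adjusted p = 0.039) and with IFNL3 (-0.65 ± 0.23, 0.040), and lower with IFNw than with IFNL3 in WT cells (-0.62 ± 0.24, 0.035). DESeq2 called none of these 3 differences, and with a transcript length offset they were -0.24, -0.47 and -0.23 (adjusted p = 0.449, 0.161 and 0.464). Leaving out any one library ended the call for IFNL3 in OPT against WT (-0.71 to -0.59) and for IFNw against IFNL3 (-0.74 to -0.46), and the call for H11 was lost without OPT replicate 1 (-0.47) or 2 (-0.73) or WT replicate 2 (-0.44). Against untreated cells IFNAR1 was at -0.55 ± 0.25 with IFNw in OPT cells, which missed the threshold (adjusted p = 0.095), and with H11 at -0.49 ± 0.25 (0.136). Both values rested on which untreated OPT library was used. They were -0.96 and -0.90 without its replicate 1 (0.0028 and 0.0045), and -0.09 and -0.03 without its replicate 2 (0.826 and 0.945), the library at 22.6 CPM. Library totals gave -0.95 and -0.87 (0.0047 and 0.0087), and the length offset -0.36 and -0.31 (0.323 and 0.400). In WT cells IFNw was at -0.40 ± 0.24 (0.221), or -0.75 and called with library totals.

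IFNAR2, the chain that binds JAK1 and holds the ligand most tightly, was not called in any of the 19 comparisons between groups. Its libraries lay at 25.2 to 44.7 CPM, both extremes being untreated cells, with the highest in OPT and the lowest in WT cells. Its fold changes ran from -0.36 to 0.35, with a smallest adjusted p of 0.293. Ordered by mean, untreated OPT cells (36.9 CPM) came first and WT cells with IFNL3 (27.9 CPM) last, and 6 of the 7 neighbouring groups in that order overlapped in their libraries.

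For type III interferons, IL28RA encodes the chain that is specific to them and carries JAK1. It was the most thinly counted member, with 30 to 57 reads per group. OPT cells had 13 and 17 reads with IFNw, 16 and 28 with H11, 30 and 26 with IFNL3 and 31 and 13 untreated, and WT cells had 25 and 23 with IFNw, 16 and 41 with H11, 29 and 22 with IFNL3 and 23 and 25 untreated. As levels these were 1.39 to 3.98 CPM, and each group overlapped with the next in the order of means. Fold changes ran from -0.90 to 0.63 with a smallest adjusted p of 0.339, and untreated OPT against untreated WT cells was at 0.15 ± 0.44 (95% interval -0.77 to 1.08). For H11 the value was 0.32 ± 0.43 in OPT against WT cells (-0.59 to 1.22), which turned to -0.31 with library totals in place of TMM, so that at this depth neither an equal nor a 2-fold higher level was outside the interval.

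IL10RB, the shared partner chain that carries TYK2, was lower in the 4 WT libraries with a type III ligand than in any other library. It was at 9.65 and 11.9 CPM with H11 and at 11.6 and 11.4 CPM with IFNL3 in WT cells, against 22.6 and 20.6 CPM in untreated WT cells. In OPT cells it was at 19.6 and 22.9 CPM with H11, 20.2 and 19.5 CPM with IFNL3 and 20.8 and 20.7 CPM with IFNw, against 21.7 and 26.3 CPM untreated, and WT cells with IFNw were at 21.4 and 22.9 CPM. The 4 low libraries did not overlap with the other 12, which began at 19.5 CPM. With H11 in WT cells IL10RB fell by 1.00 ± 0.17 (adjusted p = 2e-04), and it fell with IFNL3 (-0.91 ± 0.17, 4.6e-04). Both calls remained under each of the other settings and with each library left out, at -1.16 to -0.73 for H11 and -0.97 to -0.63 for IFNL3. Scaled by library totals alone, the 4 libraries were at 12.1 to 15.2 CPM and the other 12 at 15.9 to 28.1 CPM.

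The same ligands were not called for IL10RB in OPT cells, where H11 was at -0.17 ± 0.17 (95% interval -0.52 to 0.19) and IFNL3 at -0.26 ± 0.17 (-0.62 to 0.09). The difference between the OPT and WT responses was 0.83 ± 0.24 for H11 (adjusted p = 0.011) and 0.64 ± 0.24 for IFNL3 (0.069). The IFNL3 difference was called without replicate 2 of untreated OPT cells (0.78) and with the replicate block, whose value is given with the processing. The H11 difference was 0.38 with the length offset (0.258), 0.19 with library totals (0.540) and 0.69 without replicate 1 of WT cells with H11 (0.062). With the ligand present, OPT cells were higher than WT cells by 0.98 ± 0.17 with H11 (1.5e-04) and by 0.79 ± 0.17 with IFNL3 (0.0019). With library totals the H11 value was 0.35 (0.096) and the IFNL3 value 0.45, still called. Those 4 WT libraries are the ones that stood apart in length trend, read share and IL7R, and in this design the ligand and that difference cannot be told apart.

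Among the kinases, JAK1 is shared by the type I, type III and gamma receptors. In OPT cells it was at 7.10 and 7.23 CPM with IFNw, at 7.44 and 6.97 CPM with H11 and at 18.3 and 10.7 CPM with IFNL3, against 15.6 and 11.6 CPM untreated. In WT cells it was at 7.66 and 7.09 CPM with IFNw, at 16.3 and 13.5 CPM with H11 and at 18.7 and 11.04 CPM with IFNL3, against 15.3 and 15.9 CPM untreated. The 6 libraries of OPT cells with IFNw or H11 and of WT cells with IFNw lay between 6.97 and 7.66 CPM, and the other 10 between 10.7 and 18.7 CPM, without overlap. Library totals in place of TMM gave 5.64 to 6.28 CPM and 10.96 to 23.9 CPM. These 6 libraries also held the most ISG15, at 6759 to 7857 CPM, against 13.0 to 4375 CPM in the other 10. The same 6 had the lowest length trend (-0.43 to -0.40) and TMM factors of 0.80 to 0.84, against 1.00 to 1.28 in the other 10. The part of this in JAK1 was not tested beyond the refits given below. OPT cells with IFNL3 had the next highest ISG15, while their JAK1, at 18.3 and 10.7 CPM, lay on either side of the untreated OPT libraries.

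JAK1 fell with IFNw in OPT cells (-0.94 ± 0.29, adjusted p = 0.018) and WT cells (-1.08 ± 0.28, 0.0075), and with H11 in OPT cells (-0.93 ± 0.29, 0.020). It was not called with H11 in WT cells (-0.06 ± 0.26, 95% interval -0.60 to 0.48), nor with IFNL3 in OPT cells (0.08 ± 0.27, -0.48 to 0.65) or WT cells (-0.07 ± 0.26, -0.61 to 0.47). OPT cells with H11 were lower than WT cells with H11 (-1.05 ± 0.28, 0.0048). That call remained under each of the other settings and without each library (-1.68 to -0.82). The WT libraries with H11 are among those that stood apart, and no fit without them could give this value. The difference between the responses to H11 was -0.87 ± 0.39 (0.090), and was called with no filter on low counts (-0.88, 0.042). Between ligands, OPT cells had less JAK1 with H11 than with IFNL3 (-1.01 ± 0.28, 0.020) and with IFNw than with IFNL3 (-1.02 ± 0.28, 0.018). WT cells had less with IFNw than with IFNL3 (-1.01 ± 0.28, 0.0061) and more with H11 than with IFNw (1.01 ± 0.28, 0.0058). H11 against IFNw in OPT cells was at 0.01 ± 0.31 (-0.64 to 0.66).

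The calls for JAK1 rest on few libraries, although no left-out library turned the direction of a called value. The WT response to IFNw was lost without replicate 2 of the IFNw libraries (-0.99, adjusted p = 0.071). In OPT cells the IFNw response was lost without replicate 1 (-0.89) or 2 (-0.92) of its libraries or replicate 1 of the untreated ones (-0.69). The OPT response to H11 was likewise lost without its replicate 1 (-0.94) or 2 (-0.85) or replicate 1 of untreated cells (-0.68), and in a fit of those 4 libraries by themselves (-0.92, 0.054). Without replicate 1 of OPT cells with IFNL3, H11 and IFNw against IFNL3 were each at -0.55. They also missed the threshold with the length offset (-0.88 and -0.89, 0.055 and 0.050) and without either replicate of H11 or IFNw (-1.03 and -0.94 for H11, -0.97 and -1.01 for IFNw). In WT cells IFNw against IFNL3 was lost without replicate 2 of IFNw (-0.94) or replicate 1 of IFNL3 (-0.58), and H11 against IFNw without replicate 2 of IFNw (0.95). Besides the unfiltered fit, the difference of the H11 responses was also called without replicate 2 of untreated OPT cells (-1.05) and with library totals (-1.51). It was called with the replicate block as well, whose value is given with the processing.

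**Figure D2:**
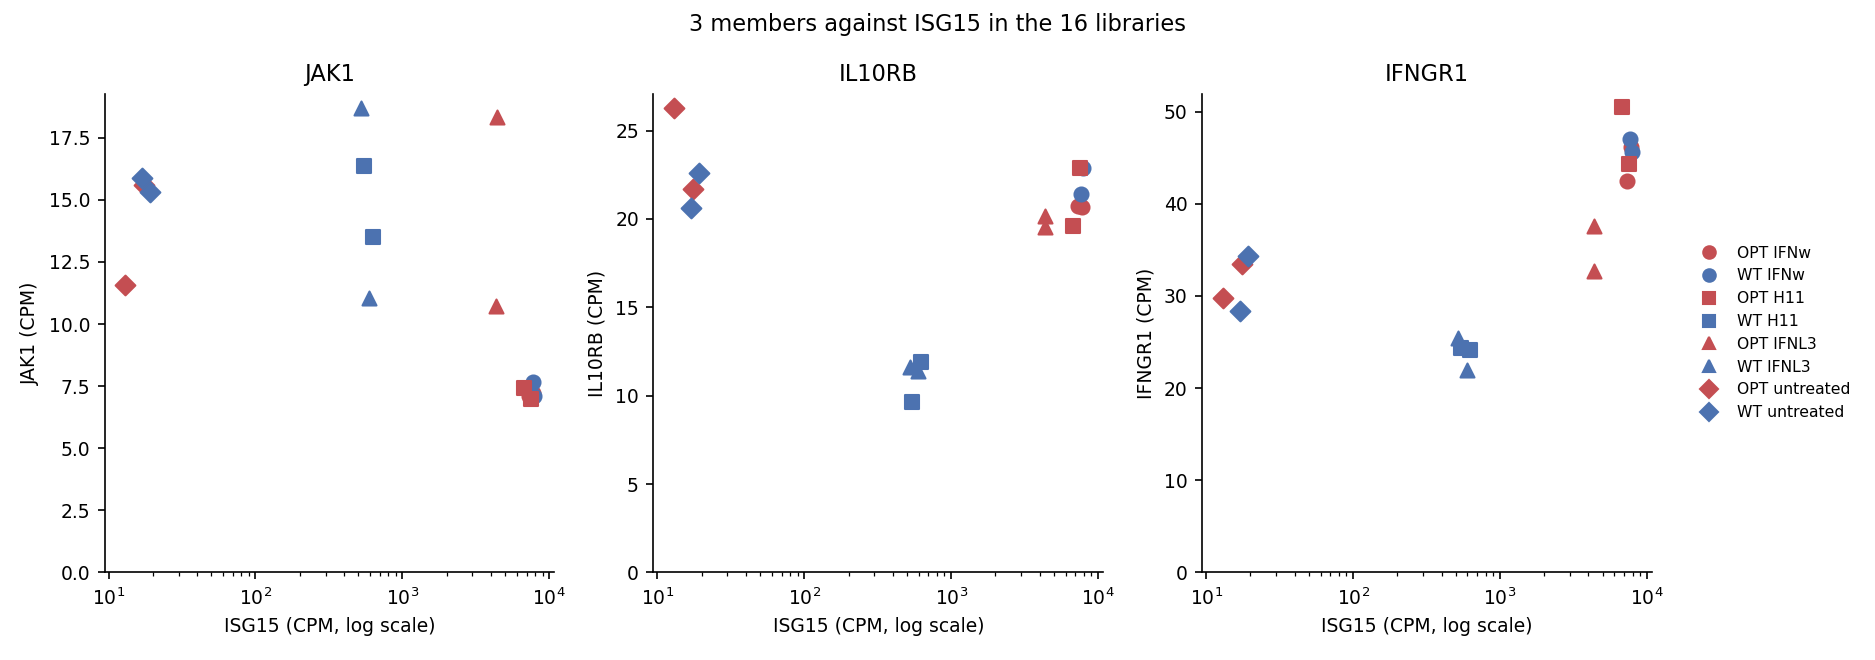
JAK1, IL10RB and IFNGR1 (CPM, vertical axes from 0) against ISG15 (CPM, log scale) in the 16 libraries; red is OPT, blue is WT, and the shape gives the ligand. On this TMM-scaled axis the 6 libraries with the most ISG15 have the least JAK1 (6.97 to 7.66 CPM) and the most IFNGR1 (42.5 to 50.5 CPM), while IL10RB is low (9.65 to 11.9 CPM) in the 4 WT libraries with H11 or IFNL3, where ISG15 is 521 to 627 CPM. The 6 libraries with the most ISG15 also have the lowest length trend (-0.43 to -0.40).

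TYK2, the other kinase of the type I and type III receptors, was at 25.4 and 27.7 CPM with IFNw, 29.4 and 26.0 CPM with H11 and 32.5 and 30.1 CPM with IFNL3 in OPT cells, against 34.9 and 29.1 CPM untreated. In WT cells it was at 60.4 and 35.5 CPM with IFNw, 42.1 and 32.5 CPM with H11 and 44.7 and 48.6 CPM with IFNL3, against 29.6 and 31.2 CPM untreated. The OPT groups were close together, and the single highest library was replicate 1 of WT cells with IFNw. TYK2 rose in WT cells with IFNw (0.65 ± 0.20, adjusted p = 0.020) and with IFNL3 (0.62 ± 0.20, 0.021), and was lower in OPT than in WT cells with IFNL3 (-0.58 ± 0.20, 0.035). Without replicate 1 of WT cells with IFNw the IFNw value was 0.27 (0.366), and it was 0.31 (0.221) with library totals. It was also lost without replicate 1 (0.62) or 2 (0.69) of untreated WT cells, and the IFNL3 calls were lost whichever library was left out (0.56 to 0.68 against untreated cells and -0.64 to -0.51 in OPT against WT cells). With IFNw, OPT against WT cells was at -0.85 ± 0.21 with an adjusted p near 1, and 0 of the 12704 genes were called in that comparison.

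JAK2, the kinase of the gamma chain IFNGR2 and of EPOR, was counted with 17 to 68 reads per library. OPT cells had 2.41 and 2.49 CPM with IFNw, 4.10 and 2.42 CPM with H11 and 2.75 and 3.79 CPM with IFNL3, against 4.28 and 7.18 CPM untreated, and the 8 WT libraries lay at 3.28 to 5.74 CPM. It was called once, with IFNw in OPT cells, where it fell by 1.18 ± 0.40 (adjusted p = 0.029). That call was lost with the length offset (-1.04), when only the 4 libraries compared were fitted (-1.19), without replicate 1 (-1.11) or 2 (-1.17) of the IFNw libraries and without replicate 2 of untreated cells (-0.80). JAK3, the remaining family member and a kinase of blood cells, had at most 6 reads in any library.

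Of the gamma receptor chains, IFNGR1 binds JAK1 and most of the ligand. It was at 42.5 and 46.1 CPM with IFNw, 50.5 and 44.4 CPM with H11 and 37.6 and 32.7 CPM with IFNL3 in OPT cells, against 33.5 and 29.8 CPM untreated. In WT cells it was at 47.1 and 45.6 CPM with IFNw, 24.3 and 24.2 CPM with H11 and 25.5 and 22.0 CPM with IFNL3, against 34.3 and 28.3 CPM untreated. With TMM scaling the libraries formed 3 ranges without overlap: the same 6 libraries that were lowest in JAK1 were highest, the 4 WT libraries with a type III ligand were lowest, and the untreated cells and OPT cells with IFNL3 lay between at 28.3 to 37.6 CPM. In the same order, these sets had TMM factors of 0.80 to 0.84, 1.26 to 1.28 and 1.00 to 1.07, and they also differed in length trend. The part of this in IFNGR1 was not tested beyond the refits given below. With library totals the ranges overlapped, at 33.7 to 40.9 CPM in the 6 libraries against 28.0 to 37.7 CPM in the other 10, and at 28.0 to 32.5 CPM in the 4 WT libraries against 29.7 to 40.9 CPM in the other 12. IFNGR1 rose with IFNw in OPT cells (0.48 ± 0.15, adjusted p = 0.021) and WT cells (0.57 ± 0.15, 0.0080) and with H11 in OPT cells (0.58 ± 0.15, 0.0070), and fell with IFNL3 in WT cells (-0.40 ± 0.15, 0.045). With H11 in WT cells it was at -0.37 ± 0.15 (0.063).

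The responses of IFNGR1 to H11 thus lay on opposite sides of 0, and their difference was 0.95 ± 0.21 (adjusted p = 0.0022), called without each library and under each setting other than library totals (0.31, 0.245). The difference for IFNL3 was 0.55 ± 0.21 (0.086). OPT cells were higher than WT cells with H11 (0.97 ± 0.15, 4.1e-05) and with IFNL3 (0.57 ± 0.15, 0.0079), and WT cells had more with IFNw than with IFNL3 (0.96 ± 0.15, 4.3e-05) and less with H11 than with IFNw (-0.93 ± 0.15, 5.9e-05). Library totals kept each of these directions and ended all of the calls, at 0.08 and 0.22 for IFNw in OPT and WT cells, 0.20 for H11 in OPT cells, -0.12 for IFNL3 in WT cells, 0.34 and 0.23 in OPT against WT cells, and 0.34 and -0.32 between ligands. That scaling moved the median of all genes by -0.40 and -0.35 for IFNw in OPT and WT cells, -0.38 for H11 in OPT cells, 0.27 and 0.28 for H11 and IFNL3 in WT cells, and -0.63 for OPT against WT cells with H11. The length offset ended the calls for IFNw in OPT cells (0.30), H11 in OPT cells (0.41, 0.051) and IFNL3 in WT cells (-0.28), as did fits of just the libraries compared (0.49, 0.59 and -0.39), and DESeq2 and the unfiltered fit did not call the last either (-0.40 in both). Single libraries decided 5 calls: OPT IFNw needed replicate 2 of its own (0.45) and of the untreated libraries (0.40), WT IFNw replicate 2 of the untreated (0.43), OPT H11 its replicate 1 (0.52), WT IFNL3 its replicates 1 (-0.51) and 2 (-0.30) and replicate 1 of the untreated (-0.26), and OPT against WT with IFNL3 replicate 1 of OPT (0.46) and replicate 2 of WT (0.46).

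IFNGR2, the chain that binds JAK2, was at 44.4 and 40.2 CPM with H11 and 48.4 and 39.8 CPM with IFNL3 in WT cells, against 78.6 and 64.0 CPM untreated. All other libraries lay at 53.9 to 76.4 CPM, above the 4 with a type III ligand. With library totals these 4 were at 50.8 to 61.7 CPM and overlapped with the other 12, at 44.5 to 82.9 CPM. It fell in WT cells with H11 (-0.75 ± 0.16, adjusted p = 0.0013) and IFNL3 (-0.69 ± 0.16, 0.0024). Both calls remained under each of the other settings and without each library. These 4 libraries are the ones that stood apart, and for IFNGR2 too the ligand and that difference cannot be told apart. In OPT cells H11 was at -0.28 ± 0.16 (95% interval -0.62 to 0.06) and IFNL3 at -0.23 ± 0.16 (-0.57 to 0.10), and the differences between the genotypes' responses, 0.47 ± 0.22 and 0.46 ± 0.22, missed the threshold (0.113 and 0.165). With the ligand present OPT cells were higher than WT cells with H11 (0.48 ± 0.16, 0.018), a value that turned to -0.15 with library totals, and with IFNL3 (0.47 ± 0.16, 0.029, or 0.14 and not called with library totals). Both were lost with the length offset (0.10 and 0.26) and without replicate 1 of the OPT libraries (0.37 and 0.36) or replicate 2 of the WT libraries (0.41 and 0.34). WT cells had more IFNGR2 with IFNw than with IFNL3 (0.64 ± 0.16, 0.0027) and less with H11 than with IFNw (-0.70 ± 0.16, 0.0014), values that were 0.02 and -0.09 with library totals and 0.26 and -0.31 with the length offset.

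EPOR, whose known role is in red cell precursors, was at 3.22 and 3.06 CPM with H11 and 3.49 and 2.69 CPM with IFNL3 in WT cells, against 6.29 and 5.49 CPM untreated, on 30 to 39 reads per library with a ligand. The other 12 libraries lay at 5.12 to 8.17 CPM, without overlap. The 4 WT libraries with H11 or IFNL3 are those that stood apart, so for EPOR the ligand and that difference cannot be told apart. It fell in WT cells with H11 (-0.90 ± 0.26, adjusted p = 0.011) and IFNL3 (-0.93 ± 0.26, 0.0099), and OPT cells were higher than WT cells with H11 (1.09 ± 0.26, 0.0023) and IFNL3 (0.97 ± 0.26, 0.0087). With library totals these 4 values were -0.64, -0.65, 0.46 and 0.64 (0.055, 0.052, 0.136 and 0.057), and the 4 libraries, at 3.43 to 4.45 CPM, then overlapped with the others (4.28 to 7.82 CPM). The H11 response was lost without H11 replicate 2 (-0.87) or untreated replicate 1 (-0.80), the IFNL3 response without IFNL3 replicate 2 (-0.75) or untreated replicate 1 (-0.83), and OPT against WT with IFNL3 without OPT replicate 1 (0.93) or WT replicate 2 (0.80). Erythroid markers were at or near 0 in all groups.

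**Figure D3:**
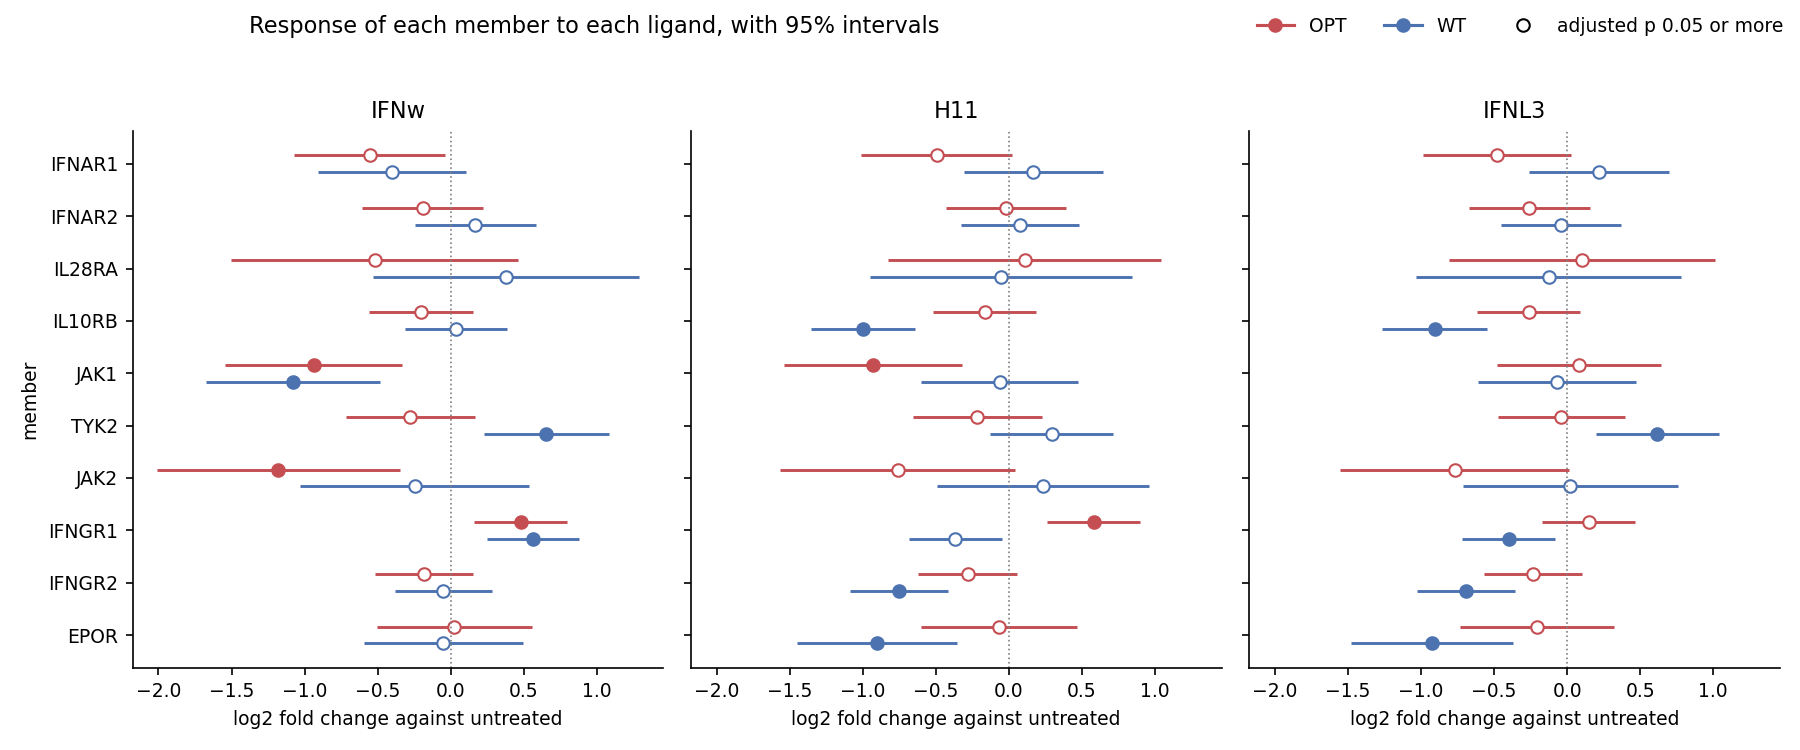
Response of each member to IFNw, H11 and IFNL3 (log2 fold change against untreated cells of the same genotype, horizontal axis) with 95% intervals; OPT is red and above WT in blue, and open points missed the threshold. With IFNw both genotypes have JAK1 below 0 and IFNGR1 above 0, and with H11 the OPT cells show this pattern (-0.93 and 0.58) while the WT cells have IL10RB, IFNGR2 (-0.75) and EPOR (-0.90) below 0.

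Against untreated cells, the members called were read beside the share of all genes called. With IFNw 3 of 10 members were called in OPT cells, 1 higher and 2 lower, beside 33.4% of all genes (17.5% higher and 15.9% lower). In WT cells IFNw gave 3, 2 higher and 1 lower, beside 31.4% (16.6% and 14.8%). For H11 they were 2 in OPT cells, 1 in each direction, beside 32.4% (17.2% and 15.2%), and 3 in WT cells, all lower, beside 38.8% (18.2% and 20.6%). With IFNL3 none was called in OPT cells by edgeR or by DESeq2, beside 13.3% of all genes (7.26% and 6.05%) and 3598 genes at an unadjusted p under 0.05. In WT cells IFNL3 gave 5, 1 higher and 4 lower, beside 39.7% (18.7% and 21.1%). The members' medians were -0.24 and -0.01 with IFNw in OPT and WT cells, -0.19 and -0.06 with H11 and -0.22 and -0.10 with IFNL3, against medians of all genes of -0.05 to -0.01. These shares lie near the background, so the counts are no result about the members, and the comparisons within a genotype share their untreated libraries.

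Between genotypes, no member was called before treatment: 0 of 10 members and 0 of the 12704 genes were called in untreated OPT against untreated WT cells, with 705 genes at an unadjusted p under 0.05. The members' values ran from -0.18 for JAK1 to 0.35 for IFNAR2, and their 95% intervals together from -0.77 to 1.08. With IFNw the count was also 0 beside 0 (439 genes unadjusted), with values from -0.85 to 0.32. With H11 6 members were called in OPT against WT cells, 4 higher (IL10RB, IFNGR1, IFNGR2 and EPOR) and 2 lower (IFNAR1 and JAK1), beside 51.7% of all genes (25.6% higher and 26.1% lower). With IFNL3 6 were called, 4 higher (the same 4 genes) and 2 lower (IFNAR1 and TYK2), beside 33.2% (18.1% and 15.1%). The test of the difference between the responses called 2 members for H11 (IL10RB and IFNGR1, both higher), beside 36.9% (19.5% higher and 17.4% lower), 0 for IFNL3, beside 18.4% (11.1% and 7.31%; 4108 genes unadjusted), and 0 for IFNw, beside 0% (633 genes unadjusted).

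H11 and IFNL3 differ in affinity for the receptor by their label and were given at the same dose. In WT cells 0 of 10 members were called between them, beside 0% of all genes (158 unadjusted), with values from -0.32 for TYK2 to 0.21 for JAK2. The intervals together ran from -0.81 to 0.96, so that a 2-fold difference in either direction lay outside each of them. Their widths differed between members, from -0.29 to 0.35 for IFNGR1 to -0.81 to 0.96 for IL28RA. In OPT cells 1 member differed, JAK1 (-1.01 ± 0.28), beside 17.6% of all genes (10.7% higher and 6.86% lower), and the other 9 ran from -0.18 to 0.43. H11 against IFNw gave 0 members in OPT cells, beside 0% (279 unadjusted) with values from -0.10 to 0.63, and 5 in WT cells, 1 higher and 4 lower, beside 52.2% (26.6% and 25.7%). IFNw against IFNL3 gave 1 member in OPT cells, JAK1 (-1.02 ± 0.28), beside 19.1% (11.5% and 7.58%), and 6 in WT cells, 4 higher and 2 lower, beside 53.1% (25.9% and 27.2%). EPOR was among them, at -0.85 ± 0.27 for H11 against IFNw and 0.88 ± 0.27 for IFNw against IFNL3 (adjusted p = 0.013 and 0.012), and the length offset (-0.54 and 0.57), library totals (-0.24 and 0.25) and leaving out IFNw replicate 1 (-0.74 and 0.77), H11 replicate 2 (-0.82) or IFNL3 replicate 2 (0.70) ended these calls. IL10RB was at -1.04 ± 0.17 and 0.94 ± 0.17 in the same comparisons (7.7e-05 and 1.9e-04), and library totals ended the second call only (0.32, 0.121). Where edgeR called no member, DESeq2 called none either, and in the 5 comparisons where edgeR called 0 of all genes DESeq2 also called 0.

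**Figure D4:**
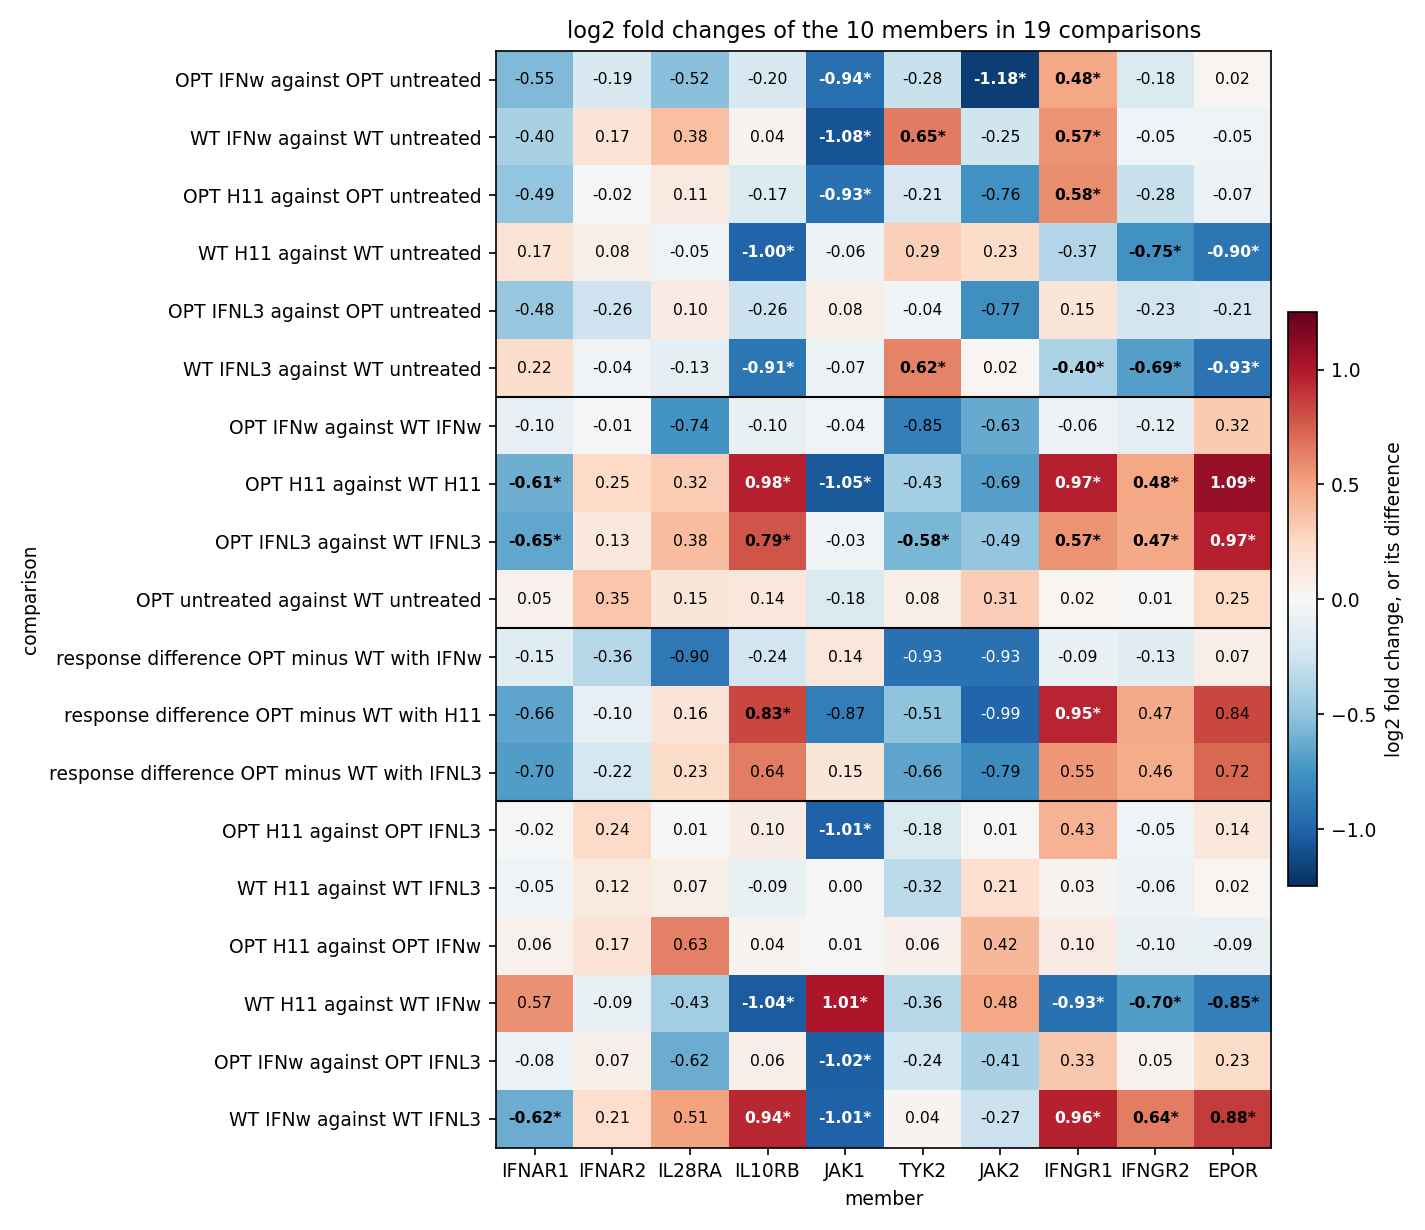
log2 fold changes of the 10 members (columns) in the 19 comparisons (rows: ligands against untreated, OPT against WT, differences between the OPT and WT responses, and ligands against each other), with red above 0, blue below 0 and an asterisk where the adjusted p is under 0.05. IL10RB, IFNGR1, IFNGR2 and EPOR are above 0 in OPT against WT cells with H11 and with IFNL3 (IFNGR2 with H11 turned to -0.15 with library totals), and JAK1 is below 0 with H11 (-1.05) but at -0.03 with IFNL3.

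The partners of these chains were read from lists of named genes. IRF9 and STAT2, which act below the type I and III receptors, rose with all 3 ligands in both genotypes. IRF9 rose by 4.30 ± 0.16 to 4.90 ± 0.17 and STAT2 by 1.22 ± 0.13 to 2.05 ± 0.13. STAT2 rose less in OPT than in WT cells with H11 (difference -0.81 ± 0.19, adjusted p = 0.0023), where OPT cells were at 1.24 ± 0.13 and WT cells at 2.05 ± 0.13. Of 19 negative regulators 15 were tested. USP18, which removes ISG15 and blocks IFNAR2, rose in all 6 comparisons with untreated cells (2.22 ± 0.15 to 3.01 ± 0.15), and SH2B3, an adaptor that restrains JAK2, fell in all 6 (-1.65 ± 0.24 to -0.85 ± 0.22). PTPN11, a phosphatase, fell with IFNw in OPT cells (-0.75 ± 0.16) and WT cells (-0.96 ± 0.16) and with H11 in OPT cells (-0.66 ± 0.16), which are the 3 groups with the lowest JAK1. They are also the 3 groups with the lowest length trend. In all, 5 regulators were called with IFNw in each genotype (1 higher and 4 lower), 5 with H11 in OPT cells (1 and 4), 5 with each type III ligand in WT cells (4 and 1) and 2 with IFNL3 in OPT cells (1 and 1). The shares of all genes called in these comparisons were 33.4% and 31.4% with IFNw in OPT and WT cells, 32.4% with H11 in OPT cells, 38.8% and 39.7% with H11 and IFNL3 in WT cells and 13.3% with IFNL3 in OPT cells, so nothing is read from the counts of this list or of those that follow.

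Among 14 adaptors and trafficking factors 13 were tested, and 3 to 6 were called in each comparison with untreated cells. PRMT5, a methyltransferase that binds Janus kinases, rose with IFNw in OPT cells (1.11 ± 0.11) and WT cells (1.07 ± 0.11), with H11 in OPT cells (1.04 ± 0.11) and with IFNL3 in OPT cells (0.63 ± 0.11). SH2B1, an adaptor of JAK2, rose with H11 (1.18 ± 0.26) and IFNL3 (1.45 ± 0.26) in WT cells. Of 27 other receptor chains that use Janus kinases 13 were tested, and 1 to 4 were called. IL15RA, the interleukin-15 receptor alpha chain, rose with IFNw in OPT cells (1.56 ± 0.44) and WT cells (2.08 ± 0.45) and with H11 in OPT cells (1.32 ± 0.45), and CNTFR, the ciliary neurotrophic factor receptor, fell in WT cells with H11 (-2.18 ± 0.22), IFNL3 (-1.95 ± 0.22) and IFNw (-0.55 ± 0.20). Of 6 further class II chains, the structural family of these receptors, 2 were tested. F3, the tissue factor gene, rose in WT cells with H11 (1.33 ± 0.27) and IFNL3 (1.38 ± 0.28). For SH2B1, CNTFR and F3, the WT libraries with H11 and IFNL3 are those that stood apart. The ligand and that difference cannot be told apart there, and the values of these lists are from the main fit only. The 22 interferon and erythropoietin genes were near 0, 5 of them without a read in any library, and the most reads belonged to IFNE, with 23 over all libraries. Over the comparisons with untreated cells the lists' medians ran from -0.22 to 0.41 for the negative regulators, -0.01 to 0.18 for the adaptors and -0.30 to 0.24 for the other receptor chains, against the medians of all genes given above.

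Genes whose log2 CPM was most like that of a member over the 16 libraries, among 8452 or 8453 genes with a mean of 10 CPM or more, are given as a description, since the libraries share their groups, depth and length trend. For JAK1 they were ROBO1 (Pearson's r = 0.93), SCAMP4 (0.93) and IMMT (0.93), and for IL10RB RASSF4 (0.98), CTSH (0.97) and RAB6B (0.97). IFNGR1 was most like TMEM59 (0.98), IFNAR1 like THRB (0.95), EPOR like CMBL (0.95), IFNGR2 like SNX2 (0.95) and JAK2 like PKMYT1 (0.86). The likeness was lower for IFNAR2 (TXNRD2, 0.85), IL28RA (NR2F6, 0.74) and TYK2 (ZNF268, 0.73).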

How the data were processed

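RNA was counted in 16 HEK293 libraries, 2 per group. The authors deposited whole-number read counts per target and library, not normalised, as the headers and values show. Their processing notes name hg19 as the build, and the sources used here name no aligner or counter. Target identifiers look like amplicons, 1 per gene, whose positions are not given. Of 20812 targets 10 spike-ins with at most 1 read were left out. Without molecular identifiers, intervals cover the spread between libraries and counting error only.

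The deposited counts went into edgeR 4.0.16 under R 4.3.3 (filterByExpr, TMM, quasi-likelihood F-test, Benjamini-Hochberg over 12704 genes, threshold 0.05). All 16 libraries entered 1 fit with a coefficient per group, since groups of 2 need a shared spread (common dispersion 0.0176, biological coefficient of variation 13.3%). SE is the log2 fold change divided by the root of F. The fit was checked on simulated counts with balanced changes in OPT cells with H11 only. Those counts had no length trend or shift in scaling, so the check does not bear on the choice between TMM, library totals and the length offset. Alternatives were DESeq2 1.42.0, its size factors, no filter, a replicate block, the compared groups alone, each library left out, an offset fitted as a natural spline of log transcript length (5 degrees of freedom, GENCODE v29) (19305 of 20802 targets, 92.8%), the fit without WT cells with H11 or IFNL3, and library totals in place of TMM, added after the data were seen. The fit without WT cells with H11 or IFNL3 covers only comparisons that do not use those cells. Members and lists were chosen with earlier results of these data known. All 10 members are named, with fold changes where called or where an uncalled value is needed, the 3 most alike genes per member, and up to 4 called genes per list and comparison with the largest changes. A negative regulator matched by no target is not analysed here. Promoter windows and gene order are from RefSeq, and no window was used for IFNAR2.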

Additional observations from a re-analysis of the deposited data

Results flagged for a closer look

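2 of 10 members responded to H11 differently in OPT and WT cells by the test of the difference itself, which called 36.9% of all 12704 genes. For IL10RB the difference of the responses was 0.83 ± 0.24 on the log2 scale (edgeR, adjusted p = 0.011), with OPT cells at -0.17 ± 0.17, whereas in WT cells it fell by 1.00 ± 0.17. For IFNGR1 it was 0.95 ± 0.21 (adjusted p = 0.0022), from 0.58 ± 0.15 in OPT cells and -0.37 ± 0.15 in WT cells. Both OPT libraries with H11 were above both WT libraries with H11 for each gene. In both genotypes the libraries with H11 differ from the untreated ones in length trend as well, in opposite directions. It was 0.37 to 0.40 with H11 against 0.13 to 0.16 untreated in WT cells, and -0.41 to -0.40 against 0.08 to 0.14 in OPT cells. The part of that in these differences was tested only through the length offset. With that offset IL10RB was at 0.38 and no longer called, and IFNGR1 was at 0.65 (adjusted p = 0.029). With library totals neither was called, IL10RB at 0.19 (0.540) and IFNGR1 at 0.31 (0.245), and IL10RB was also lost without replicate 1 of WT cells with H11 (0.69, 0.062).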

How the results depend on the processing

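Of 43 called pairs of a member and a comparison, 12 remained called under each of the other settings, 16 with each library left out and 7 under both. The 7 are IL10RB and IFNGR2 in WT cells with H11 and with IFNL3 against untreated cells, IL10RB in OPT against WT cells with IFNL3 and in WT cells with H11 against IFNw, and JAK1 in OPT against WT cells with H11. Each of the 7 uses WT cells with H11 or IFNL3, whose libraries stood apart from the others. The fit without those libraries could not give any of the 7, so it was no test of them. No called value reversed except IFNGR2 in OPT against WT cells with H11, at -0.15 with library totals. The cause of the changes was not tested, beyond the fewer samples in fits that leave libraries out.

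With library totals the members called were 3 for WT IFNL3, 7 for OPT IFNw and 6 for OPT H11 against untreated cells, 3 for OPT against WT cells with IFNL3, 5 and 2 for the differences of the H11 and IFNL3 responses, and 2 for IFNw against IFNL3 in OPT cells. That scaling also moved the split of all genes called. Against untreated cells it gave 1103 higher and 4808 lower for OPT IFNw (2226 and 2021 with TMM), 1146 and 4548 for WT IFNw (2109 and 1879), 1118 and 4572 for OPT H11 (2185 and 1931), 4039 and 1589 for WT H11 (2317 and 2615), 727 and 1003 for OPT IFNL3 (922 and 768), and 4194 and 1596 for WT IFNL3 (2370 and 2677). For OPT against WT cells it gave 1502 and 6797 with H11 (3251 and 3314) and 1206 and 4402 with IFNL3 (2300 and 1920), and for the differences of the responses 1140 and 5348 (2480 and 2210) and 727 and 2611 (1409 and 929). Between ligands it gave 1586 and 6744 for IFNw against IFNL3 (3290 and 3458) and 6653 and 1558 for H11 against IFNw (3373 and 3259) in WT cells, and in OPT cells 512 and 3310 for H11 (1360 and 872) and 553 and 3648 for IFNw (1459 and 963) against IFNL3. With the length offset the members called were 1 for OPT IFNw, 3 for OPT against WT cells with IFNL3, 1 for the difference of the H11 responses, 3 each for IFNw against IFNL3 and H11 against IFNw in WT cells, and 0 for H11 and IFNw against IFNL3 in OPT cells. All genes called with that offset were, in the same order, 1790 higher and 1764 lower, 1849 and 1596, 1887 and 1855, 2857 and 2861, 2869 and 2817, 742 and 454, and 818 and 482. Fits of the compared groups alone gave 1 for OPT IFNw, 0 for OPT H11 and 2 for H11 against IFNL3 in OPT cells, where DESeq2 and its size factors also gave 2.

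Same-numbered libraries of 28 pairs of groups had correlated deviations of 0.085 to 0.212, all positive and 27 above 0.1. Because not every pair was above 0.1 and the labels do not say what the numbers mark, the main fit did not pair the samples. What the replicate numbers share was not tested beyond the block. With the replicate block the members called were 2 for the difference of the IFNL3 responses and 2 for H11 against IFNL3 in OPT cells, and the block brought the differences of the responses under the threshold for JAK1 with H11 (-0.83, adjusted p = 0.043) and IL10RB with IFNL3 (0.65, 0.047). The fit without WT cells with H11 or IFNL3 kept the side of the threshold of all 17 named values it could give. Leaving out each library in turn gave 1 to 2 members for WT IFNw, 2 to 4 for WT IFNL3, 0 to 3 for OPT IFNw, 0 to 2 for OPT H11 and 0 to 2 for OPT IFNL3 against untreated cells. It gave 1 to 4 for OPT against WT cells with IFNL3, 0 to 1 untreated, 1 to 3 and 0 to 2 for the differences of the H11 and IFNL3 responses, and 0 to 1 for H11 and for IFNw against IFNL3 in OPT cells.

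Uncalled values near 0 changed sign. IL28RA in WT cells with H11 against untreated cells was at 0.21 with library totals and -0.83 to 0.44 without single libraries, and in OPT against WT cells with H11 at -0.31 and -0.21 to 1.09. JAK1 in WT cells with H11 against untreated cells was at 0.20 with library totals and -0.21 to 0.071 without single libraries, with IFNL3 in OPT cells at -0.35 to 0.42, and for H11 against IFNw in OPT cells at -0.0022 with the block and -0.040 to 0.045. Depth limits IL28RA and JAK2 most, with 30 to 57 and 38 to 125 reads per group.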
